A study of Rattus norvegicus with 54 samples.

Results

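The mitochondrially encoded genes are the 37 genes carried by the mitochondrial DNA itself. They were taken as all rows of the count table placed on the mitochondrial chromosome (MT), 37 of 30560 genes, and comprise 13 mRNA, 2 ribosomal RNA and 22 transfer RNA genes. The table lists them by Ensembl identifier and position, so each was named here from its place, strand and length in the gene order that mammalian mitochondrial genomes share. A count was present for 34 of the 37, and 25 passed the filter on low counts (13 mRNAs, 2 rRNAs and 10 tRNAs) among 17172 genes tested. The other 12 members, all tRNAs, were not tested, and 3 of them (tRNA-Phe, tRNA-Gly and tRNA-Leu(CUN)) had no count in any of the 54 libraries.

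The study measured polyadenylated RNA from cultures of embryonic day 18 rat cortex labelled as neurons, to examine the methyl-CpG binding protein Mbd3 in epileptogenesis. Cultures were untransfected, received the control virus AAV-SYN-GFP, or received AAV-SYN-rMBD3-GFP, which overexpresses Mbd3; all virus-treated cultures therefore also carry GFP, and SYN is the usual short name of a promoter active in neurons. Each kind was kept in medium with magnesium or in the epileptiform medium without it and sampled at 2, 6 or 24 h. This gives 18 groups of 3 libraries, which the labels call biological replicates 1 to 3 of the cell culture and which are called cultures 1 to 3 here. The labels do not say whether a number stands for separate animals, and the labelled cell type was not checked against markers, because its identifiers come without gene names.

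Mitochondrial DNA is transcribed from both strands as long precursors that are cut into mRNAs, rRNAs and tRNAs. The mRNAs encode core subunits of the respiratory chain complexes I (the ND genes), III (CYTB) and IV (the COX genes) and of the ATP synthase, complex V (the ATP genes). Together these make most of the ATP that supports firing and ion pumping in neurons. In rat, 28 of the 37 genes lie on the plus strand and 9 on the minus strand, the latter being 8 tRNAs and ND6.

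Library totals ranged from 14448927 to 39691105 counts, so that 3 counts, the floor used for a gene at 0, correspond to 0.076 to 0.206 CPM (the usual counts-per-million unit, scaled with edgeR's TMM factors of 0.896 to 1.08). Totals were higher at 6 h than at 2 h in 8 of 18 matched pairs and at 24 h in 7 of 18. The correlation of a library with its group mates over non-mitochondrial genes averaged 0.977 ± 0.00951, 0.968 ± 0.0140 and 0.950 ± 0.0218 for 2, 6 and 24 h (SD over 18 libraries). Libraries of 1 group were therefore least alike at 24 h. Where a group held a library below 0.93, the least alike one was left out in a repeat of every test, a choice made after seeing the data. This concerns 4 libraries: culture 1 of rMBD3 with magnesium at 24 h, culture 2 of untransfected with magnesium at 24 h, culture 1 of untransfected without magnesium at 24 h and culture 1 of untransfected with magnesium at 6 h.

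Mitochondrial genes took 1.38% to 4.9% of a library's counts, with a median of 2.05%. Per kilobase, COX1 had the highest mean level at 4531 ± 1347 CPM per kb (SD, n = 54), followed by COX3 at 3687 ± 1815, CYTB at 3041 ± 1168 and ATP6 at 2736 ± 1559. COX1, which encodes the catalytic subunit of complex IV, was the most abundant gene of all in 10 libraries and never ranked below 4. COX1 lay above COX3 in 47 of 54 libraries, COX3 above CYTB in 52, and CYTB above ATP6 in 46.

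A middle range of levels per kb followed. It held COX2 at 1607 ± 898, ND1 at 1491 ± 575, 12S rRNA at 1473 ± 747, ND2 at 1187 ± 509, 16S rRNA at 996 ± 494, ATP8 at 921 ± 426 and ND4 at 921 ± 397 CPM per kb. COX2 lay above ND1 in 27 of 54 libraries, ND1 above 12S rRNA in 22 and ATP8 above ND4 in 25, so the order within these pairs varied from library to library. 12S rRNA lay above ND2 in 43, ND2 above 16S rRNA in 42 and 16S rRNA above ATP8 in 35. ND4 lay above ND5 in all 54. The lowest mRNAs all encode complex I subunits: ND5 at 504 ± 219, ND3 at 358 ± 155, ND4L at 253 ± 96.4 and ND6 at 84.8 ± 54 CPM per kb. COX1 stood 53.4 times above ND6, the only mRNA read from the minus strand.

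The counting bears on these levels. Reads were counted by strand, so ND6 and the end of ND5 that it overlaps were kept apart. Read pairs touching more than 1 gene on the same strand were not assigned. This lowers short and overlapping genes such as ATP8, whose last 43 bases overlap ATP6, and ND4L, whose last 7 overlap ND4. It also lowers the tRNAs of 60 to 75 bases. Genes of an overlapping pair are counted as 1 mRNA each here, and whether they share a transcript was not examined. The kit selects polyadenylated RNA, so counts show what that selection let through and not the cellular amount, above all for rRNAs and tRNAs. How fully each mRNA, ND6 included, was selected was not measured, which bears on its level and its changes. Nuclear copies of mitochondrial sequence were not identified here.

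Mitochondrial mRNAs were higher at 6 h than at 2 h, and most stayed higher at 24 h. At 6 h, 13 of the 25 tested members passed an adjusted p of 0.05 in edgeR's quasi-likelihood test, averaged over the 6 construct and medium conditions, all of them higher; among all 17172 genes 22.2% were called higher and 49.1% in either direction. The 13 were tRNA-Leu(UUR) and 12 of the 13 mRNAs, all but COX1. DESeq2 called 14 members. The mRNAs had a median log2 difference of 0.64, against -0.02 over all genes tested. At 24 h, 13 members were higher than at 2 h (11 mRNAs and 2 tRNAs) and 2 tRNAs lower, beside a background of 34.2% higher, 35.3% lower and 69.5% in either direction; the mRNAs' median was 0.70, against 0.02 over all genes. DESeq2 called 16 members. From 6 to 24 h, 5 members were called by edgeR and 5 by DESeq2 (background 50.6% in either direction), and edgeR called 2 members without culture 2 and 3 without culture 3. In bulk RNA, a change in the mix of cells and a change in RNA per cell cannot be told apart.

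No member was separated between times, that is, higher or lower in every library of the later time than in any library of the earlier one. Of all genes, 0.105% were separated upward and 2.38% downward from 2 to 6 h, 0.245% and 0.577% from 6 to 24 h, and 3.27% and 8.14% from 2 to 24 h. Cultures of the same number, construct and medium gave 18 matched pairs of time points. The mRNAs' share of all counts was 1.62% ± 0.438, 2.44% ± 0.841 and 2.38% ± 0.726 in the 2, 6 and 24 h libraries (SD over 18 libraries; a sum over the members, given as a description). It was higher at 6 h than at 2 h in 18 of 18 pairs and at 24 h than at 2 h in 15 of 18.

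**Figure D1:**
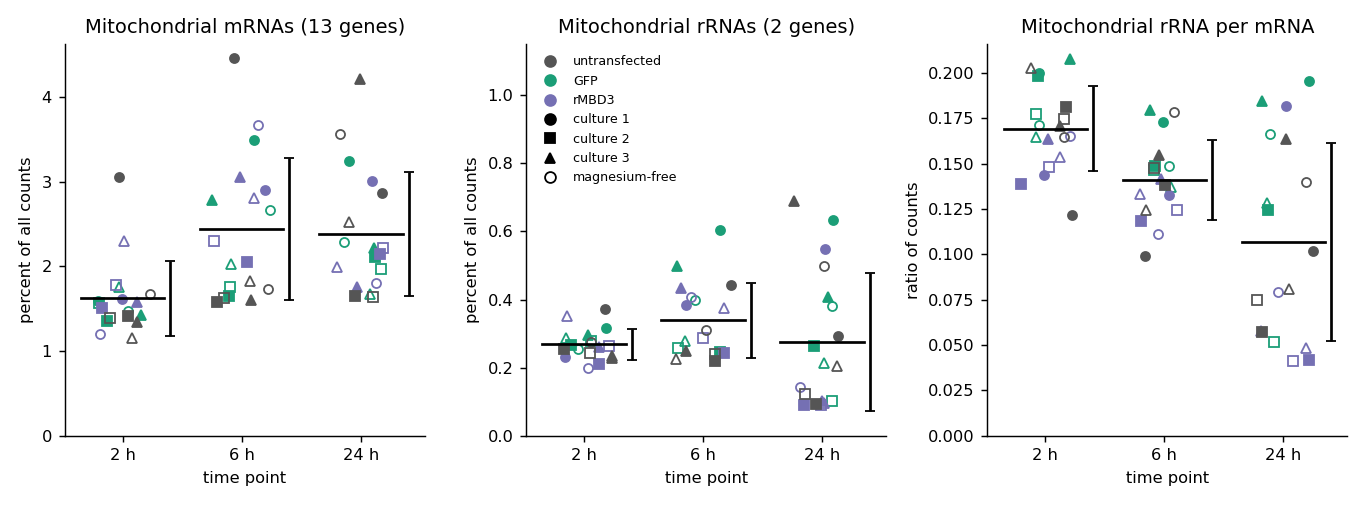
Share of all counts taken by the 13 mitochondrial mRNAs (left) and the 2 rRNAs (middle), and the ratio of rRNA to mRNA counts (right), in each of the 54 libraries by time point. Lines are means and bars SD of 18 libraries; colours mark the construct, shapes the culture number and open symbols magnesium-free medium. The mRNA share is higher at 6 h and 24 h than at 2 h, while the rRNA values spread widely at 24 h.

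From 2 to 24 h, ND5 had the highest log2 change among the complex I genes. ND5 (ENSRNOG00000029971, MT:11736-13565, plus strand) encodes a proton-pumping subunit. The lowest, median and highest 2 h libraries had 237, 538 and 1122 CPM, those at 6 h 437, 953 and 1355 CPM, and those at 24 h 818, 1143 and 2268 CPM. The ranges overlapped, but ND5 was higher at 24 h than at 2 h in 18 of 18 pairs. Its log2 change was 0.80 ± 0.14 (SE) at 6 h (adjusted p = 1.19e-05, edgeR) and 1.17 ± 0.14 at 24 h (adjusted p = 2.89e-09, edgeR). From 6 to 24 h it rose by a further 0.36 ± 0.14 (adjusted p = 0.0321, edgeR), the only mRNA called between these times, beside a background of 24.3% higher. This last call was lost without any 1 of the 3 cultures, with adjusted p of 0.127, 0.115 and 0.0616 in edgeR.

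ND4L and ND4, which overlap by 7 bases, had the next highest log2 changes from 2 to 24 h among the plus-strand complex I genes. ND4L had 23.8, 44 and 91.4 CPM at 2 h and 65.6, 86.1 and 138 CPM at 24 h (lowest, median and highest), was higher in 18 of 18 pairs and rose by 0.94 ± 0.14 on the log2 scale (adjusted p = 2.79e-07, edgeR). ND4 had 396, 814 and 1822 CPM at 2 h and 953, 1440 and 2895 CPM at 24 h and rose by 0.86 ± 0.17 (adjusted p = 3.67e-05, edgeR). Both genes' ranges overlapped between the times.

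The remaining plus-strand genes of complex I changed less. ND3 rose by 0.70 ± 0.17 from 2 to 24 h and ND1 by 0.45 ± 0.16, with edgeR adjusted p of 0.000535 and 0.0109, and the ND1 call was lost without culture 3 (adjusted p = 0.197, edgeR). ND2 had medians of 930, 1227 and 973 CPM at 2, 6 and 24 h. It rose at 6 h by 0.50 ± 0.17 (adjusted p = 0.0142, edgeR; 0.0944 without culture 3) and at 24 h stood 0.29 ± 0.17 above 2 h, which did not pass (adjusted p = 0.137, edgeR). ND2 was higher at 24 h in 9 of 18 pairs and lower in 9.

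ND6 (ENSRNOG00000029042, MT:13543-14061, minus strand) had 20.9, 28.2 and 48.1 CPM at 2 h, 19.9, 42.6 and 72.6 CPM at 6 h and 18.3, 45.2 and 161 CPM at 24 h. The lowest value hardly moved while the highest grew, so the spread widened. ND6 rose by 0.61 ± 0.23 at 6 h and by 0.96 ± 0.23 at 24 h (adjusted p = 0.0242 and 0.000294, edgeR), and was higher at 24 h in 13 of 18 pairs. The mean 24 h change over the 6 pairs of a culture was 1.24 in culture 1, 0.02 in culture 2 and 0.96 in culture 3 on the log2 scale, lowest in culture 2. The call at 6 h was lost without culture 1 or without culture 3 (adjusted p = 0.0778 and 0.204, edgeR).

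Complex IV genes did not move alike. COX1 (ENSRNOG00000034234, MT:5323-6867, plus strand) had 4906, 5614 and 10505 CPM at 2 h, 4568, 6918 and 12634 CPM at 6 h and 5202, 6738 and 12475 CPM at 24 h. Its log2 differences from 2 h were 0.31 ± 0.14 at 6 h and 0.24 ± 0.14 at 24 h and did not pass (adjusted p = 0.0607 and 0.115, edgeR). With the culture number as a block both passed, at adjusted p of 0.0408 and 0.0479 in edgeR.

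COX2, which holds the copper centre that receives electrons from cytochrome c, had 481, 629 and 1785 CPM at 2 h, 637, 1187 and 2888 CPM at 6 h and 639, 1166 and 3334 CPM at 24 h. It rose by 0.89 ± 0.19 at 6 h, in 18 of 18 pairs, and by 0.94 ± 0.19 at 24 h, in 17 of 18 (adjusted p = 0.000162 and 3.4e-05, edgeR). COX3, a structural core subunit, had medians of 1807, 3116 and 2689 CPM and rose by 0.81 ± 0.18 at 6 h and 0.67 ± 0.18 at 24 h (adjusted p = 0.000252 and 0.0012, edgeR).

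Ratios within the same library show the unequal change. COX2 counts per COX1 count were 0.110 ± 0.0183, 0.166 ± 0.0314 and 0.177 ± 0.0466 in the 2, 6 and 24 h libraries (SD, n = 18 each), higher at 24 h than at 2 h in 18 of 18 pairs. ND5 counts per COX1 count were 0.0902 ± 0.0216, 0.135 ± 0.0354 and 0.174 ± 0.0507, also higher in 18 of 18. COX1 made up 37.5% ± 3.15 of mitochondrial mRNA counts at 2 h, 31.3% ± 2.67 at 6 h and 31.4% ± 3.54 at 24 h. By complex, complex IV genes held 53.5% ± 2.8 of the mRNA counts at 2 h and 49.7% ± 2.04 at 24 h, and complex I genes 22.3% ± 2.18 and 25% ± 2.03.

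**Figure D2:**
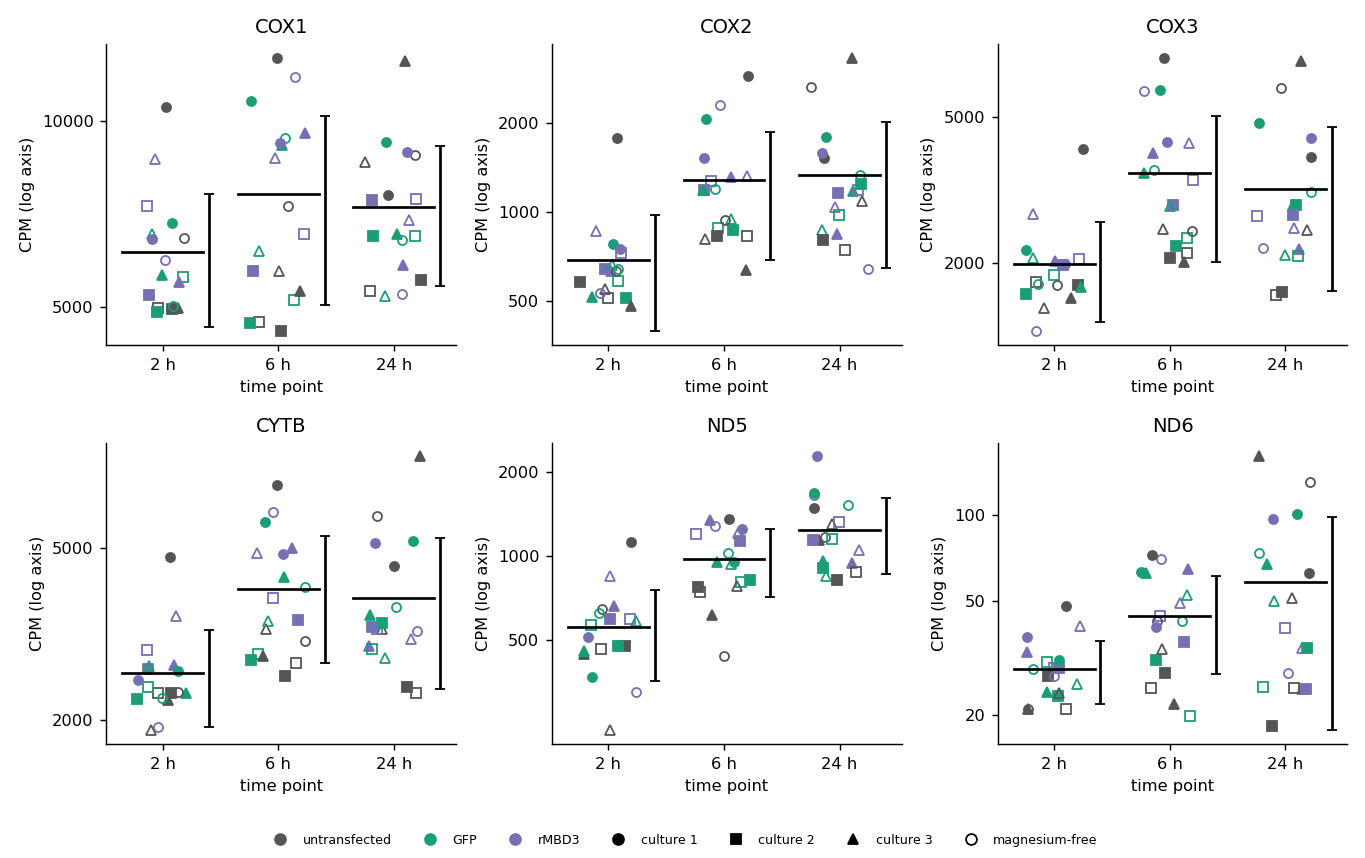
Level in CPM (log axis) of COX1, COX2, COX3, CYTB, ND5 and ND6 in each of the 54 libraries by time point. Lines are means and bars SD of 18 libraries; colours mark the construct, shapes the culture number and open symbols magnesium-free medium. ND5 and COX2 shift upward after 2 h, COX1 shifts little, and ND6 fans out at 24 h from 18.3 to 161 CPM.

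CYTB, the mitochondrially encoded subunit of complex III that carries electrons through the membrane, had 1898, 2353 and 4755 CPM at 2 h, 2529, 3622 and 6998 CPM at 6 h and 2310, 3268 and 8127 CPM at 24 h. The ranges overlapped, while 18 of 18 pairs were higher at 6 h than at 2 h and 16 of 18 at 24 h. CYTB rose by 0.63 ± 0.14 at 6 h and 0.56 ± 0.14 at 24 h (adjusted p = 0.000314 and 0.000681, edgeR).

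Both ATP synthase genes rose at 6 h and stood above their 2 h level at 24 h. ATP6, part of the proton channel, had medians of 1161, 1731 and 1763 CPM at 2, 6 and 24 h, and ATP8, a small membrane subunit, 126, 194 and 178 CPM. At 6 h both rose by 0.76 on the log2 scale (SE 0.20 and 0.17, adjusted p = 0.00187 and 0.000248, edgeR). At 24 h the changes from 2 h were 0.70 ± 0.20 and 0.49 ± 0.17 (adjusted p = 0.0024 and 0.00891, edgeR), and both were lost without culture 3 (adjusted p = 0.0592 and 0.0856, edgeR).

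Over the 12 plus-strand mRNAs, order along the genome and the log2 change from 2 to 24 h had a Spearman rho of 0.643. The same changes and gene length had a rho of -0.112. These are descriptions across genes that share libraries and a precursor, not independent points.

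**Figure D3:**
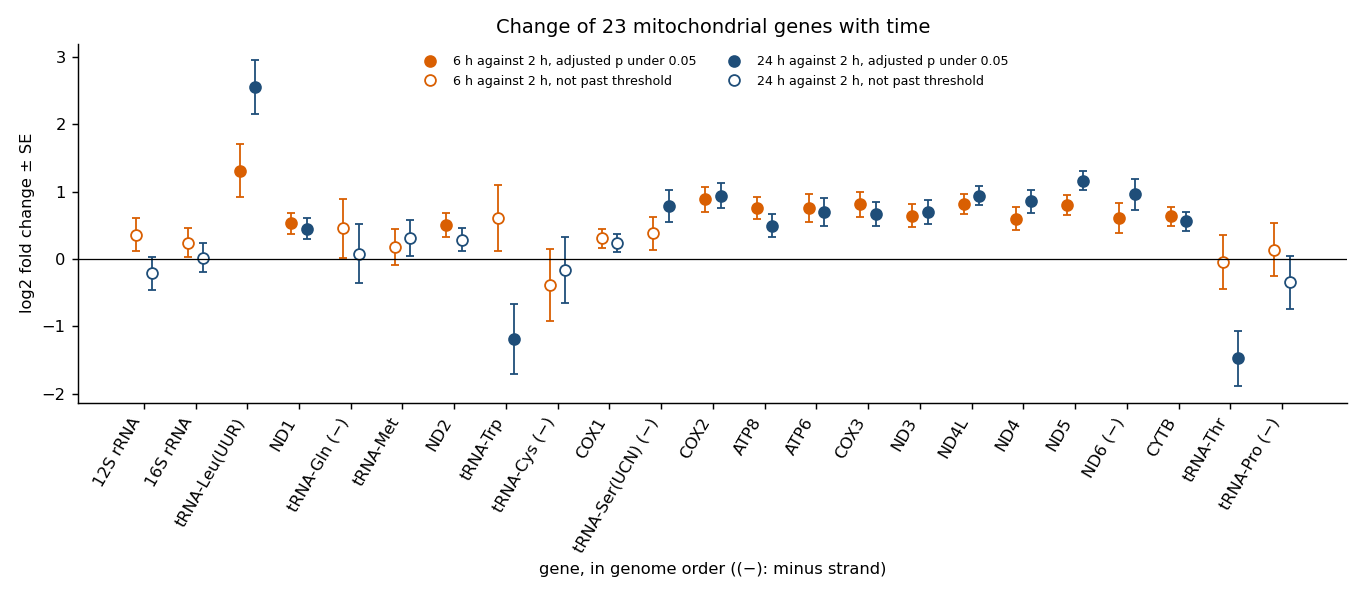
Log2 fold change with its SE for 23 tested mitochondrial genes in genome order, from 2 to 6 h and from 2 to 24 h, averaged over 6 conditions; filled symbols passed an adjusted p of 0.05 in edgeR. tRNA-Ala and tRNA-Glu are left out because at least 1 group had no count in any library. The mRNAs lie between 0.24 and 1.17 and the rRNAs between -0.21 and 0.36, and 3 tRNAs stand at 2.55, -1.18 and -1.48 from 2 to 24 h.

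The 2 rRNAs, which form the small (12S) and large (16S) subunits of the mitochondrial ribosome, did not pass the test with the mRNAs. 12S rRNA (ENSRNOG00000030478, MT:68-1025) had 998, 1232 and 2112 CPM at 2 h, 968, 1548 and 3410 CPM at 6 h and 367, 826 and 3247 CPM at 24 h. 16S rRNA (ENSRNOG00000043866, MT:1094-2664) had 981, 1404 and 1873 CPM, 1112, 1504 and 2995 CPM and 487, 1204 and 4442 CPM. At 24 h both spread above and below their whole 2 h range. Neither passed in edgeR at 6 h against 2 h (log2 differences 0.36 ± 0.24 and 0.24 ± 0.22, adjusted p = 0.228 and 0.374) or at 24 h against 2 h (-0.21 ± 0.24 and 0.02 ± 0.22, adjusted p = 0.45 and 0.957). For 12S rRNA the latter passed in edgeR with the culture number as a block within each time point (-0.39 ± 0.16, adjusted p = 0.028). That difference also passed without culture 1 (-0.63 ± 0.23, adjusted p = 0.0177, edgeR) and without the 4 least alike libraries (-0.54 ± 0.17, adjusted p = 0.00655, edgeR). Culture 1 of rMBD3 with magnesium and culture 1 of untransfected without magnesium, both left out at 24 h, had their groups' highest rRNA shares. These were 0.547% and 0.499% of counts. Culture 2 of untransfected with magnesium had the lowest of its group (0.0944%). Culture 1 alone had a mean 24 h change of 12S rRNA above 0, as given below. The shares of all genes called in these fits are not given here.

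12S rRNA fell by 0.57 ± 0.24 on the log2 scale from 6 to 24 h (adjusted p = 0.0493, edgeR), beside a background of 26.3% of genes lower. This call was lost with RLE factors (adjusted p = 0.057, edgeR) and without the low-count filter (adjusted p = 0.079, edgeR), and without culture 2 or culture 3 (adjusted p = 0.192 and 0.159, edgeR). 16S rRNA was -0.22 ± 0.22 from 6 to 24 h (adjusted p = 0.408, edgeR). It passed without culture 1 at -0.56 ± 0.23 and without the 4 least alike libraries at -0.45 ± 0.16 (adjusted p = 0.0403 and 0.0166, edgeR). The 24 h libraries left out are described above, and the 6 h one had the highest rRNA share of its group (0.441%).

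The ratio of rRNA to mRNA counts was 0.169 ± 0.0233, 0.141 ± 0.0219 and 0.107 ± 0.0545 at the 3 time points in order (SD, n = 18 each), lower at 24 h than at 2 h in 17 of 18 pairs. At 24 h, 10 of 18 libraries lay below the lowest 2 h library: 5 of 6 rMBD3, 4 of 6 untransfected and 1 of 6 GFP libraries, or, by culture, 2, 5 and 3 of 6 for cultures 1, 2 and 3. The mean 24 h change of 12S rRNA over the 6 pairs of a culture was 0.22, -1.26 and -0.43 on the log2 scale, and that of 16S rRNA 0.61, -1.08 and -0.21, so culture 1 lay above 0 and the others below it.

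The 2 rRNAs did not keep a constant level relative to each other. The ratio of 16S to 12S counts was 1.10 ± 0.158 at 2 h, 1.04 ± 0.161 at 6 h and 1.31 ± 0.141 at 24 h, and was higher at 24 h than at both earlier times in 18 of 18 pairs. It also differed between cultures: at 2 h it was 0.913 ± 0.0911 in culture 1, 1.21 ± 0.0836 in culture 2 and 1.19 ± 0.0687 in culture 3 (SD, n = 6 each). The highest culture 1 library at 2 h, at 1.04, was below the lowest of cultures 2 and 3, at 1.08 and 1.10.

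The tRNAs, which carry amino acids to the mitochondrial ribosome and separate many of the longer genes, gave 15673 of 34516841 mitochondrial counts (0.0454%). The 3 with over 1000 counts in total were tRNA-Ser(UCN) with 5822, tRNA-Met with 5124 and tRNA-Thr with 1117. tRNA-Ser(UCN), read from the minus strand, had medians of 80.5, 96.5 and 113.5 counts per library at 2, 6 and 24 h and rose by 0.79 ± 0.24 from 2 to 24 h (adjusted p = 0.00423, edgeR).

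tRNA-Leu(UUR) (ENSRNOG00000032112, MT:2665-2739) lies between 16S rRNA and ND1. Its lowest, median and highest counts were 0, 5 and 24 at 2 h. They were 0, 16.5 and 33 at 6 h, and 6, 28.5 and 94 after 24 h. It was higher at 24 h than at 2 h in 17 of 18 pairs, with overlapping ranges, and rose by 2.55 ± 0.40 (adjusted p = 4.16e-07, edgeR), the highest log2 change among the tested members. From 2 to 6 h it rose by 1.31 ± 0.39 and from 6 to 24 h by 1.24 ± 0.37 (adjusted p = 0.00549 and 0.00537, edgeR). The first of these was lost without culture 3 (adjusted p = 0.195, edgeR) and the second without culture 1 (adjusted p = 0.0885, edgeR). At 2 h, 4 of 18 libraries had 3 counts or fewer, so the size of the change is imprecise.

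tRNA-Thr (ENSRNOG00000030339, MT:15280-15346), next to CYTB, had 9, 24.5 and 57 counts at 2 h, 8, 25 and 49 counts at 6 h and 0, 7 and 41 counts at 24 h. It was lower at 24 h than at 2 h in 16 of 18 pairs and fell by 1.48 ± 0.41 on the log2 scale (adjusted p = 0.00167, edgeR), and from 6 h by 1.43 ± 0.41 (adjusted p = 0.00373, edgeR). Both calls were lost without culture 2 (adjusted p = 0.0695 and 0.115, edgeR). The neighbouring CYTB rose from 2 to 24 h.

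tRNA-Trp (ENSRNOG00000029677, MT:4943-5008), which follows ND2, was at the limit of counting. It had 0, 3.5 and 8 counts at 2 h, 1, 4 and 19 counts at 6 h and 0, 1 and 15 counts at 24 h, with 7 of 18 libraries at 0 at 24 h. Its fitted log2 change was -1.18 ± 0.52 from 2 to 24 h (adjusted p = 0.0402, edgeR) and -1.80 ± 0.52 from 6 h (adjusted p = 0.00412, edgeR), although its mean count was 3.72 at 2 h and 3.06 at 24 h. The call from 2 to 24 h was lost with the culture number as a block within each time point (adjusted p = 0.0532, edgeR), without the low-count filter (adjusted p = 0.0654, edgeR), without the 4 least alike libraries (adjusted p = 0.115, edgeR), and without culture 1 or 2 (adjusted p = 0.296 and 0.0985, edgeR).

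**Figure D4:**
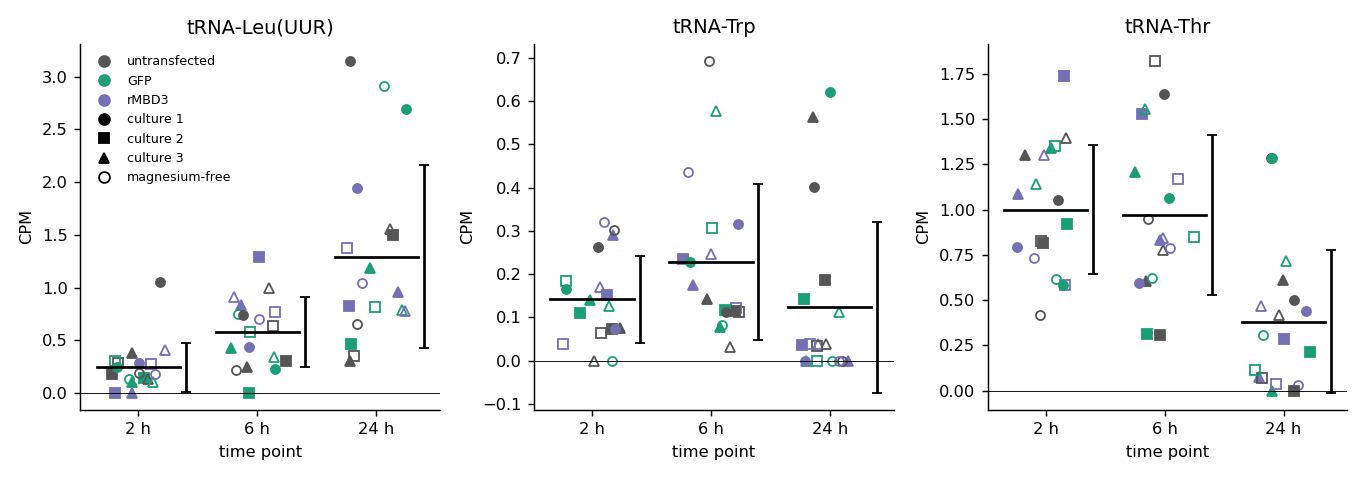
Level in CPM of tRNA-Leu(UUR), tRNA-Trp and tRNA-Thr in each of the 54 libraries by time point, with means and SD of 18 libraries; bars can reach below 0. Colours mark the construct, shapes the culture number and open symbols magnesium-free medium. tRNA-Leu(UUR) is higher and tRNA-Thr lower at 24 h, and 7 libraries are at 0 for tRNA-Trp at 24 h.

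Medium without magnesium induces epileptiform activity in such cultures, and no tested member passed the threshold between media over all 54 libraries. In edgeR, 0 of 25 members were called in the comparison averaged over 9 construct and time conditions, nor at 2, 6 or 24 h alone, and 0% of all genes were called in each. At an unadjusted p under 0.05 there were 5 members in the averaged comparison, 0 at 2 h, 0 at 6 h and 4 at 24 h, and DESeq2 called 0 in each. The 13 mRNAs had averaged log2 differences of -0.34 to -0.07, all below 0, with a median of -0.22 against -0.01 over all genes, and a smallest adjusted p of 0.542 in edgeR. Pairs of the same construct, time and culture number did not share this direction. Of 27 such pairs, the mRNAs were higher without magnesium in 10 (ND3) to 15 (COX1). Median log2 differences over the pairs ran from -0.17 (ND6) to 0.05 (ND2).

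The lowest unadjusted p-values between media at 24 h were those of the rRNAs. With magnesium, 12S rRNA had 1302, 367 and 3247 CPM in untransfected cultures 1 to 3, 2760, 1133 and 1709 CPM in GFP cultures and 2689, 410 and 438 CPM in rMBD3 cultures. Without magnesium it had 2319, 442 and 776 CPM, 1650, 388 and 876 CPM, and 669, 407 and 413 CPM. The ranges overlapped, and 12S rRNA was lower without magnesium in 7 of 9 pairs of the same construct and culture and 16S rRNA in 6 of 9. The log2 differences were -0.89 ± 0.35 and -0.87 ± 0.31 (adjusted p = 0.33 and 0.28, edgeR).

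These rRNA differences passed under 2 other fits, which called 6.91% and 5.97% of all genes between media at 24 h. With the culture number as a block within each time point they were -0.85 ± 0.23 for 12S rRNA and -0.79 ± 0.22 for 16S rRNA (adjusted p = 0.0193 and 0.027, edgeR). Without the 4 least alike libraries they were -0.87 ± 0.26 and -0.80 ± 0.23 (adjusted p = 0.0367 and 0.0301, edgeR), and COX3 passed as well at -0.65 ± 0.20 (adjusted p = 0.043, edgeR). Of the 24 h libraries left out, untransfected culture 2 with magnesium had the lowest rRNA share of its group (0.0944% of counts). Untransfected culture 1 without magnesium had the highest of its group (0.499%). Both lay against the medium difference, while rMBD3 culture 1 with magnesium (0.547%, the highest of its group) lay with it. The test of a change in the medium difference from 2 to 24 h called 0 members in edgeR (background 0%), 0 at an unadjusted p under 0.05 and 0 in DESeq2.

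rMBD3 cultures were compared with GFP cultures, which also received a virus. Averaged over 6 medium and time conditions, 0 of 25 members were called in edgeR, while 11% of all genes were; 2 members had an unadjusted p under 0.05 and DESeq2 called 0. The mRNAs' median log2 difference was 0.10, against -0.03 over all genes. The lowest unadjusted p among the mRNAs belonged to ND5, at 0.30 ± 0.14 (adjusted p = 0.173, edgeR), which was higher with rMBD3 in 16 of 18 pairs. Without culture 1, ND5 passed at 0.36 ± 0.10 (adjusted p = 0.0156, edgeR). 16S rRNA was lower with rMBD3 in 15 of 18 pairs, at -0.46 ± 0.22 (adjusted p = 0.169, edgeR), and passed with the culture number as a block within each time point at -0.46 ± 0.16 (adjusted p = 0.03, edgeR). Without the 4 least alike libraries 16S rRNA at -0.69 ± 0.15 and 12S rRNA at -0.54 ± 0.17 passed (adjusted p = 0.000867 and 0.0188, edgeR). In this comparison the block within each time point called 23.8% of all genes, and the fit without the 4 libraries 21%. The share of all genes called without culture 1 is not given here.

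By time, 0 members were called at 2 h, 6 h or 24 h (backgrounds 0.874%, 0.221% and 0.949% of genes), with 0, 0 and 3 at an unadjusted p under 0.05 and 0 in DESeq2 each time. At 24 h, 16S rRNA had 3693, 1461 and 2306 CPM in GFP cultures 1 to 3 with magnesium and 2112, 592 and 1221 CPM without. rMBD3 cultures had 3050, 487 and 557 CPM with magnesium and 734, 500 and 556 CPM without. Of the 6 rMBD3 libraries, culture 1 with magnesium and culture 1 without magnesium lay inside the GFP range, and the other 4 lay below the lowest GFP library. In each of the 6 pairs 16S rRNA was lower with rMBD3. The log2 difference was -1.0 ± 0.38 for 16S rRNA and -0.82 ± 0.42 for 12S rRNA (adjusted p = 0.151 and 0.316, edgeR).

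The rMBD3 library at 3050 CPM is 1 of the 4 least alike. Without these 4, a fit that called 15.1% of all genes in this comparison, 16S rRNA was -1.69 ± 0.28 and 12S rRNA -1.55 ± 0.31 (adjusted p = 7.15e-05 and 0.000645, edgeR), and ND6 at -1.0 ± 0.29 and tRNA-Met at -1.26 ± 0.40 passed too (adjusted p = 0.0176 and 0.0294, edgeR). With the culture number as a block within each time point, where 12.7% of genes were called, 16S rRNA was -1.01 ± 0.27 and 12S rRNA -0.84 ± 0.28 (adjusted p = 0.0135 and 0.0406, edgeR). Without culture 1, 16S rRNA passed at -1.34 ± 0.41 (adjusted p = 0.0398, edgeR), and the share of all genes called in that fit is not given here. The change of the rMBD3 difference from 2 to 24 h was also tested. Over all 54 libraries it was -0.73 ± 0.60 for 12S rRNA and -0.77 ± 0.53 for 16S rRNA (adjusted p = 0.751 and 0.697, edgeR; 0 members called, 2 at an unadjusted p under 0.05, 0 in DESeq2, against 0.0175% of genes). Without the 4 libraries it was -1.47 ± 0.42 and -1.46 ± 0.37 (adjusted p = 0.0422 and 0.0248, edgeR), where 3.31% of genes were called.

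**Figure D5:**
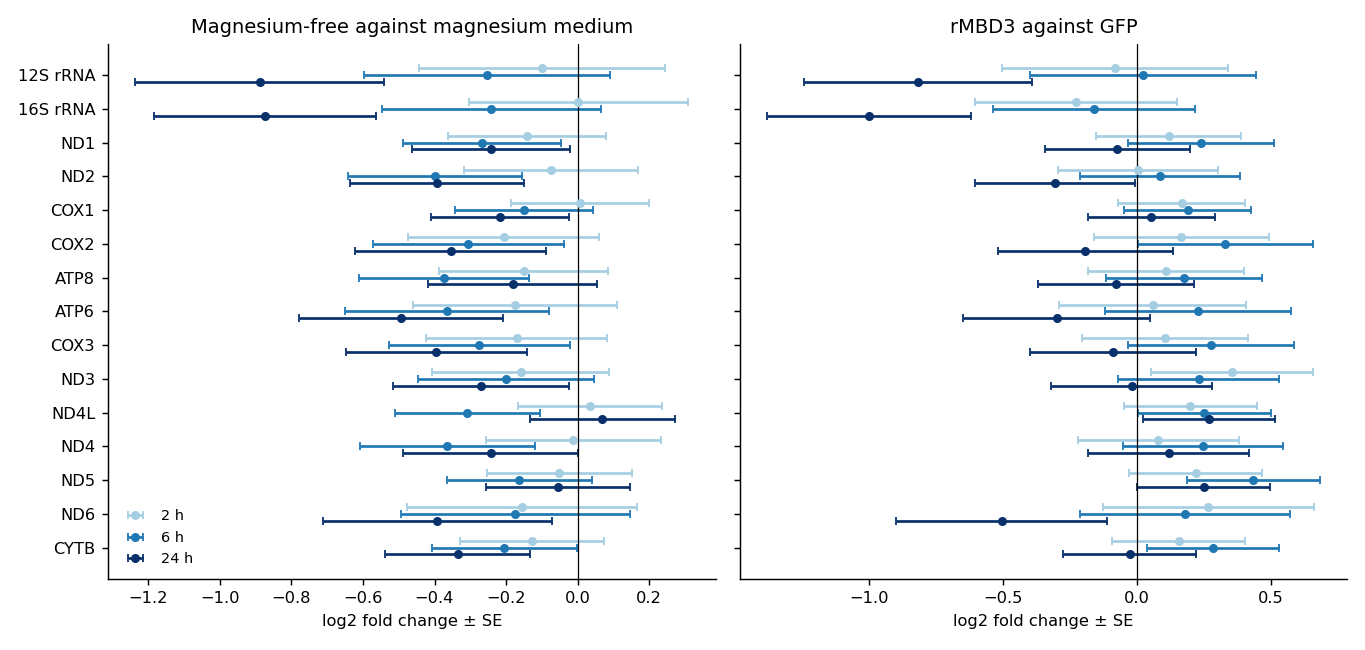
Log2 fold change with its SE of the 2 rRNAs and 13 mRNAs between media (left, averaged over 3 constructs) and between rMBD3 and GFP (right, averaged over 2 media) at 2, 6 and 24 h, from the edgeR fit of all 54 libraries. None of these values passed an adjusted p of 0.05. The mRNAs lie between -0.49 and 0.07 (left) and between -0.50 and 0.43 (right), and the rRNAs at 24 h lie lowest, at -0.89 and -0.87 (left) and -0.82 and -1.0 (right).

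Against untransfected cultures, GFP cultures had 0 members called (background 0.297%; 1 at an unadjusted p under 0.05, 0 in DESeq2) and rMBD3 cultures 0 (background 8.65%; 3 at an unadjusted p under 0.05, 0 in DESeq2). These comparisons share their libraries with those above. ND5 was 0.36 ± 0.14 in rMBD3 against untransfected cultures (adjusted p = 0.118, edgeR). Without culture 1, ND5 at 0.54 ± 0.10 and ND4L at 0.50 ± 0.12 passed (adjusted p = 0.000651 and 0.00813, edgeR). The 8.65% of genes is that of the fit of all libraries, and the share called without culture 1 is not given here. The test of a difference in the rMBD3 comparison between media called 0 members in edgeR, 0 at an unadjusted p under 0.05 and 0 in DESeq2, and 0% of genes. Over 15 comparisons of 3 against 3 libraries in single conditions, edgeR called 0 members and DESeq2 0, with at most 2 members at an unadjusted p under 0.05 in any of them and a background of 0% of genes in the 9 comparisons of media. In the 6 of rMBD3 against GFP the background was 0.0116% with and 0.00582% without magnesium at 2 h, 0.0116% and 0.00582% at 6 h, and at 24 h 0.134% and 0.0233% in the same order. Without the 4 least alike libraries these 15 gave 11 calls, all lower. Between media in untransfected cultures at 24 h, then 2 against 2 libraries, they were 12S and 16S rRNA, COX2, COX3, ATP6, ND6 and CYTB, where 16.4% of all genes were called in the same fit. The libraries left out there had the lowest mitochondrial share with magnesium (1.75%) and the highest without (4.07%). These calls therefore depend on removing the 2 libraries that lay against the difference. All 3 libraries with magnesium had correlations below 0.93 (0.912, 0.922 and 0.928). Between rMBD3 and GFP with magnesium at 24 h the calls were 12S and 16S rRNA, tRNA-Met and ND6, beside 13% of genes. The rMBD3 library left out there had the highest rRNA share of its group.

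Across the 18 groups, the mean mitochondrial share of counts ran from 1.66% ± 0.281 in untransfected cultures without magnesium at 2 h to 3.29% ± 0.751 in rMBD3 cultures without magnesium at 6 h (SD, n = 3 each). The spread within groups was uneven. Untransfected cultures with magnesium at 6 h held 1.8%, 1.86% and 4.9%, and at 24 h 1.75%, 3.16% and 4.9%, while untransfected cultures without magnesium at 6 h held 1.87%, 2.04% and 2.05%.

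Within groups, members varied together to different degrees. The SD of log2 CPM among libraries of a group ran from 0.41 for COX1 to 0.72 for ND6 among the mRNAs, and was 0.77 for 12S and 0.68 for 16S rRNA. Taken as a ratio to COX1 in the same library, the SD was 0.16 for ND1, 0.20 for CYTB and 0.21 for ND3, but 0.41 for ND5, 0.45 for ND4L and 0.50 for ND6. COX3 followed CYTB most closely, with an SD of 0.14 for their ratio. ND6 counts as a percentage of ND5 counts, from the opposite strand of the neighbouring stretch, ranged from 1.7% to 14.1%.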

How the data were processed

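The authors deposited raw read-pair counts per gene for 54 libraries, made with featureCounts 2.0.0 on Ensembl release 105 of mRatBN7.2, counting by strand (option s 2) with a mapping quality of at least 3, per the file headers; the labels' protocol names rn6 and STAR instead, and the kit as KAPA Stranded mRNA. From these counts, edgeR 4.0.16 (R 4.3.3) was run here on all 54 libraries with 1 coefficient per group, TMM scaling, filterByExpr (10 counts, 15 in total) and robust quasi-likelihood tests, with Benjamini-Hochberg adjustment over 17172 genes and a threshold of 0.05. DESeq2 1.42.0 was an alternative, and the pipeline was tested on simulated data. The simulated counts held no culture effect, so that test does not bear on leaving a culture term out of the fit. All 13 mRNAs and 2 rRNAs are named, and tRNAs where they passed in an averaged comparison or held the highest counts. Members and lists were chosen with earlier results of these data known. The planned lists of nuclear mitochondrial genes and cell type markers, and the check of the overexpressed gene, were not analysed here, since identifiers could not be matched to names.

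The labels number the cell cultures, and the same numbers recur in all groups, so the number was used to match libraries in counts of pairs and as a block in alternative fits. The fit behind the calls had no culture term. Deviations from the group means of same-numbered libraries had a mean correlation of 0.189 over 459 pairs, and 325 pairs exceeded 0.1. For pairs that differ only in time the mean was 0.180, with 35 of 54 above 0.1. It was 0.279 where only the construct differs (50 of 54) and 0.301 where only the medium differs (25 of 27). The matching is thus weaker between times than between constructs or media. Within groups, no pair of libraries agreed within sampling noise (lowest chi-square per gene 9.76). P-values of the fit behind the calls measure the spread between libraries within groups. That fit treats libraries as independent, although same-numbered ones correlate across groups. Matched pairs share 3 culture numbers and are not independent either. The floor of 3 counts covers counting error only, while each SE and SD includes the spread between cultures.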

Additional observations from a re-analysis of the deposited data

How the results depend on the processing

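Of 33 called gene results, each repeated under 11 alternatives (363 values), 340 stayed called with the same direction, 23 kept the direction but missed the threshold, and 0 reversed; 20 of the 33 were never lost. Leaving out 1 culture at a time gave 9 to 14 called members from 2 to 6 h, 12 to 16 from 2 to 24 h and 2 to 4 from 6 to 24 h. In the same order, the fit of all libraries called 13, 15 and 5 of 25 members, beside 49.1%, 69.5% and 50.6% of all genes. Shares of all genes in the refits between times are not given here. Leaving out 1 culture gave 0 to 1 for rMBD3 against GFP averaged and 0 to 1 at 24 h, 0 to 2 for rMBD3 against untransfected, and 0 to 1 over the single conditions. The replicate block gave 14, 5 and 16 calls from 2 to 6 h, 6 to 24 h and 2 to 24 h; it added COX1 from 2 to 6 h and from 2 to 24 h and changed no other call. The replicate block within each time point gave 2 calls between media at 24 h, 1 for rMBD3 against GFP averaged and 2 at 24 h, while it called 6.91%, 23.8% and 12.7% of all genes. Without the 4 least alike libraries, an alternative chosen after seeing the data, these were 3, 2 and 4, beside 5.97%, 21% and 15.1% of all genes, with 2 for the change of the rMBD3 difference from 2 to 24 h (3.31% of genes) and 11 over the single conditions. The cause was not tested. Low tRNA counts limit the precision of those genes' changes.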
